A study of Arabidopsis thaliana with 12 samples.

Results

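The 4 nuclear genes described here encode proteins of the photosynthetic membrane and were measured in an expression array study of *Arabidopsis thaliana*. They are LHB1B2 (AT2G34420), PSAN (AT5G64040), PSBW (AT2G30570) and PSBY (AT1G67740). The genes were chosen by name, as those whose probe the platform annotation assigns to 1 gene only. Each had 1 probe, so the 4 genes were 4 of the 689 loci that a probe of 1 gene covered, on an array of 3439 probes. The probes are numbered 2665, 85, 3529 and 2030 in that order.

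The series holds 12 samples of total RNA from plants of ecotype landsberg. In 6 samples the plants were wild type and dark adapted. In the other 6 they were the laf6 mutant, which lacks the atABC1 transporter and was moved from dark adaptation to normal light for 1 h. Genotype and light changed together, so every difference below is of both at once and the 2 cannot be told apart. The labels do not give the tissue, the age of the plants, the number of mutant lines or whether the numbered samples, called readings here, came from separate plants. The p-values therefore cover only how far these readings scatter, and that scatter may be technical.

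Photosystem II and photosystem I are the pigment-protein complexes of the thylakoid membrane that carry out the light reactions, and antenna proteins bind chlorophyll and pass excitation energy to them. Their nuclear genes encode proteins that are imported into the plastid, where they are joined with subunits encoded by the plastid genome. Many of these genes are known to have more transcript in light than in prolonged darkness. LHB1B2 encodes a chlorophyll a/b-binding protein of the Lhcb1 type, the major antenna of photosystem II. PSAN is a lumenal subunit of photosystem I at the side where plastocyanin docks. PSBW and PSBY are small membrane-spanning proteins of photosystem II.

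All 4 probes gave a signal in all 12 readings, and none was listed at 0 in any. With mean intensities of at least 3.01 they belonged to the brightest 10% of the probes, which began at a mean of 1.27. Over the whole array, between 13.0% and 19.3% of the probes of a reading were at 0, and the median intensity was 0.218 to 0.289 in wild type and 0.161 to 0.170 in laf6. The intensities have a ceiling of 100, which 1 to 5 probes of each reading had reached. Of the 4 genes, PSBW had 1 reading there. For arrays, the number of samples limits the precision.

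LHB1B2, PSAN and PSBY were higher in the illuminated mutant than in dark wild type in all 6 pairs of readings of the same number, both as deposited and after normalisation. PSBW was not. The same held for 6.89% of all probes and 28.5% of the brightest 10% as deposited, and for 12.8% and 29.9% after normalisation. In the planned test none of the 4 differences passed the threshold, an adjusted p under 0.05 over all probes. That test used 3 replicates per group, each the mean of 2 consecutive readings, and called 9.74% of all probes, 5.50% higher and 4.25% lower in laf6. It called 28.2% of the brightest 10%. When the fit included the replicate number as a block, calls over all probes went from 189 higher and 146 lower to 3 and 9, and leaving out 1 replicate gave 59 to 114 higher and 32 to 83 lower. None of the 4 genes was called in those settings either. The block left 2 residual degrees of freedom, against 4 in the planned test, and did not change the differences themselves. Fewer calls with it therefore do not mean smaller differences.

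LHB1B2 had deposited intensities of 14.1 (lowest), 17.1 (median) and 23.2 (highest) in the 6 wild type readings. In laf6 these were 23.5, 30.1 and 35.6. Every laf6 reading was above every wild type reading, although the highest of wild type and the lowest of laf6 nearly met. The 3 replicates averaged 18.1 ± 4.22 (SD) in darkness and 29.7 ± 5.47 in the illuminated mutant, a 1.65-fold ratio. Quantile normalisation reduced the log2 difference from 0.72 to 0.57 ± 0.17 (SE), or 1.49-fold, with a 95% interval of 0.14 to 1.01 on the log2 scale. The adjusted p was 0.113 in limma. After normalisation the highest wild type reading and the lowest laf6 reading had the same value, so the groups touched. Lhcb1 proteins are encoded by a family of near-identical genes, and whether the probe tells this copy from the others was not tested.

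PSAN was the other gene whose deposited readings did not overlap. Its wild type readings were 3.43, 4.61 and 4.84 (lowest, median, highest). The laf6 readings were 5.50, 7.91 and 8.82. In wild type 5 of the 6 readings lay close together, between 4.38 and 4.84, and reading 6 was below them. In laf6, readings 1 to 4 lay between 7.64 and 8.82, while readings 5 and 6 were at 5.50 and 5.54. Replicate means were 4.44 ± 0.268 for wild type and 7.31 ± 1.58 for the mutant (SD, n = 3 each), a 1.62-fold ratio. On the log2 scale the groups differed by 0.70 as deposited and by 0.71 ± 0.17 (SE) once normalised, which is 1.63-fold, and the 95% interval was 0.27 to 1.15 on the log2 scale. Its adjusted p, 0.0740 in limma, was the lowest of the 4 genes. The normalised readings did not overlap either.

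Readings as deposited that were higher throughout laf6 than throughout wild type thus occurred in 2 of the 4 genes. They occurred in 4.54% of all probes and in 20.9% of the brightest 10%. After normalisation 1 of the 4 genes, PSAN, met this condition, against 7.97% of all probes.

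**Figure D1:**
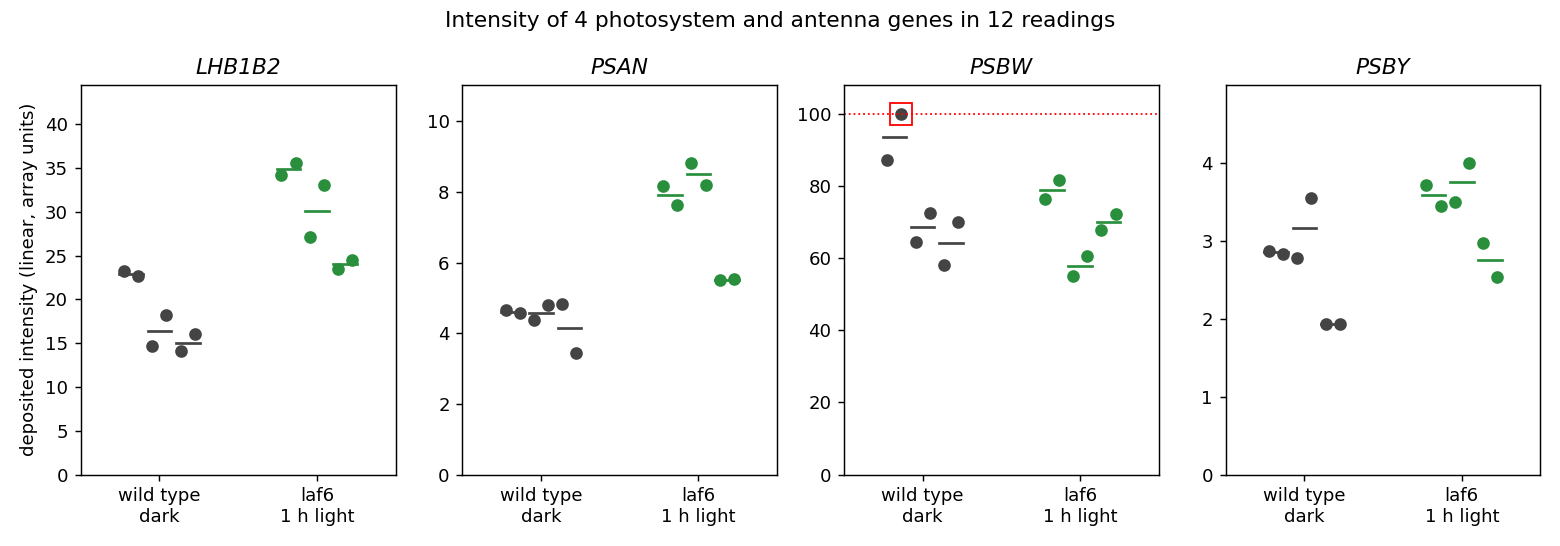
Deposited intensity (vertical axes, linear array units, each starting at 0) of the 4 genes in the 6 wild type readings in darkness and the 6 laf6 readings after 1 h of light, in order of reading number within a group. Points are readings, short lines are the means of consecutive readings that served as replicates, and the dotted line with the square marks the PSBW reading at the ceiling of 100. The groups are separate for LHB1B2 and PSAN and overlap for PSBW and PSBY.

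PSBY is made as a precursor that is cut into a pair of small proteins of photosystem II. Its deposited intensities were 1.93, 2.80 and 3.55 (lowest, median, highest) in wild type. In laf6 they were 2.53, 3.47 and 4.0. The groups overlapped, because wild type reading 4, at 3.55, was above 4 of the 6 laf6 readings. The means were 2.65 ± 0.639 and 3.36 ± 0.534 (SD, n = 3 each), a 1.28-fold ratio. The log2 difference was 0.36 as deposited and 0.41 ± 0.15 (SE) after normalisation, with an adjusted p of 0.182 in limma. The normalised ratio was 1.33-fold, and the 95% interval of the log2 difference was 0.01 to 0.81.

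Within each group, readings 5 and 6 of PSBY were the lowest, at 1.93 each in wild type and at 2.97 and 2.53 in laf6. Compared by number, the ratio of laf6 to wild type was 1.13 to 1.54 over the 6 numbers as deposited, and 1.24 to 1.47 after normalisation. Readings 5 and 6 also had fewer probes at the ceiling, 1 in each wild type and 2 in each laf6 reading, against 2 to 5 in readings 1 to 4, and the part of this in the values was not tested.

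PSBW was the 1 gene of the 4 with a negative difference. Its deposited intensities were 58.1, 71.2 and 100 (lowest, median, highest) in wild type. The laf6 readings were 54.9, 70.0 and 81.7. The groups overlapped over most of their range. Wild type reading 2 was at the ceiling, so that value is a lower bound, as is the wild type mean of 75.4 ± 16.0. The laf6 mean was 68.9 ± 10.7 (SD, n = 3 each). The log2 difference was -0.12 as deposited, where the ceiling makes it an upper bound, and -0.46 ± 0.17 (SE) after normalisation, with an adjusted p of 0.186 in limma. The 95% interval of the normalised difference ran from -0.90 to -0.01. With wild type reading 1 alone as that replicate, in place of its mean with the reading at the ceiling, the difference was -0.44. With replicates centred on their medians it was 0.48 and with replicates scaled by the 75th percentile 0.29, so the sign of PSBW depended on the scaling. For so bright a probe the quantile-normalised value is set by its rank among few probes. Wild type replicates 2 and 3, at 68.5 and 64.1 as deposited, both became 6.25. The laf6 readings had 2 to 5 probes at the ceiling and the wild type readings 1 to 3. The part of this in the normalised difference was not tested.

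By number, PSBW in laf6 was 0.817 to 0.874 of wild type for numbers 1 to 4 as deposited, and 1.17 and 1.03 for numbers 5 and 6. After normalisation it was below 1 for all 6 numbers, from 0.631 to 0.844. LHB1B2 had ratios of 1.47 to 1.85 as deposited, with the highest for numbers 3 and 4. PSAN had 1.14 for number 5 and 1.62 to 2.01 for the other numbers. The plot of ratios by number shows LHB1B2, PSAN and PSBY above 1 throughout.

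**Figure D2:**
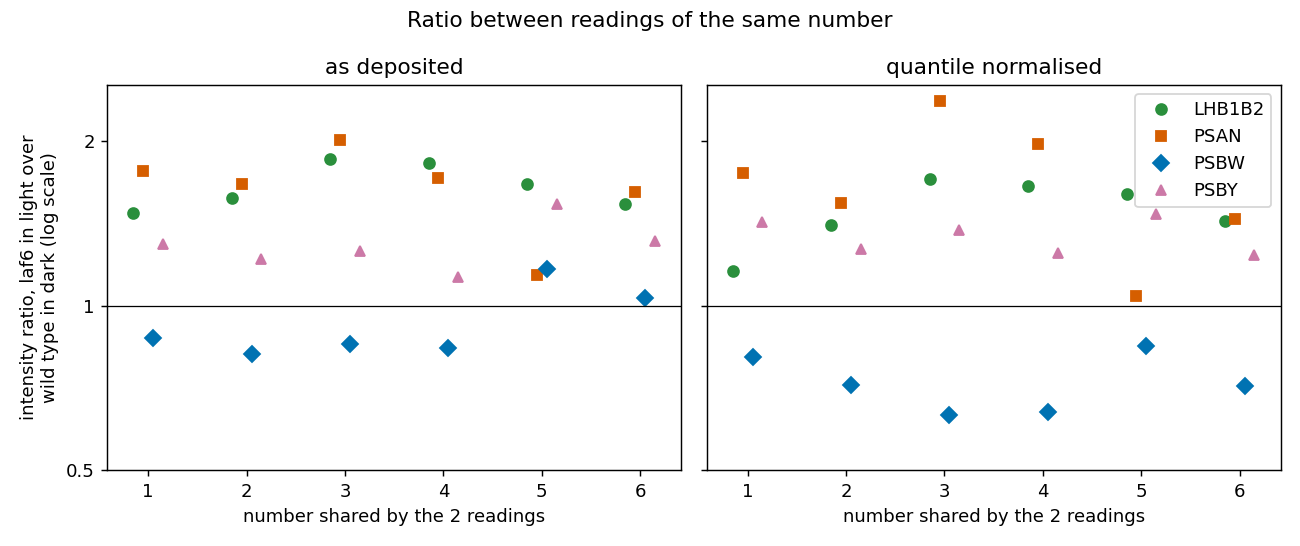
Ratio of the laf6 intensity after 1 h of light to the wild type intensity in darkness (vertical axis, log scale) for readings of the same number (horizontal axis), as deposited on the left and after quantile normalisation on the right. Each point is 1 gene and 1 number; the deposited PSBW ratio of number 2 is an upper bound because the wild type reading was at the ceiling. PSBW lies below 1 for 4 of the numbers as deposited and for all 6 after normalisation.

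The median log2 difference of the 4 genes was 0.53 as deposited and 0.49 after normalisation. Over all probes these medians were -0.54 and -0.08, and over the brightest 10% -0.25 and -0.15. All 4 genes had an unadjusted p under 0.05 in limma, as did 25.9% of all probes and 52.9% of the brightest 10%. LHB1B2, PSAN and PSBY had positive differences in every one of the 18 alternative settings run for each of them. Some of these settings, such as the replicate block and the trend and robust settings, leave the difference itself unchanged and could not change its sign. The differences ranged from 0.44 to 1.32 for LHB1B2, from 0.58 to 1.3 for PSAN and from 0.30 to 0.96 for PSBY. In bulk RNA, fewer cells of a type and less RNA per cell cannot be told apart.

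**Figure D3:**
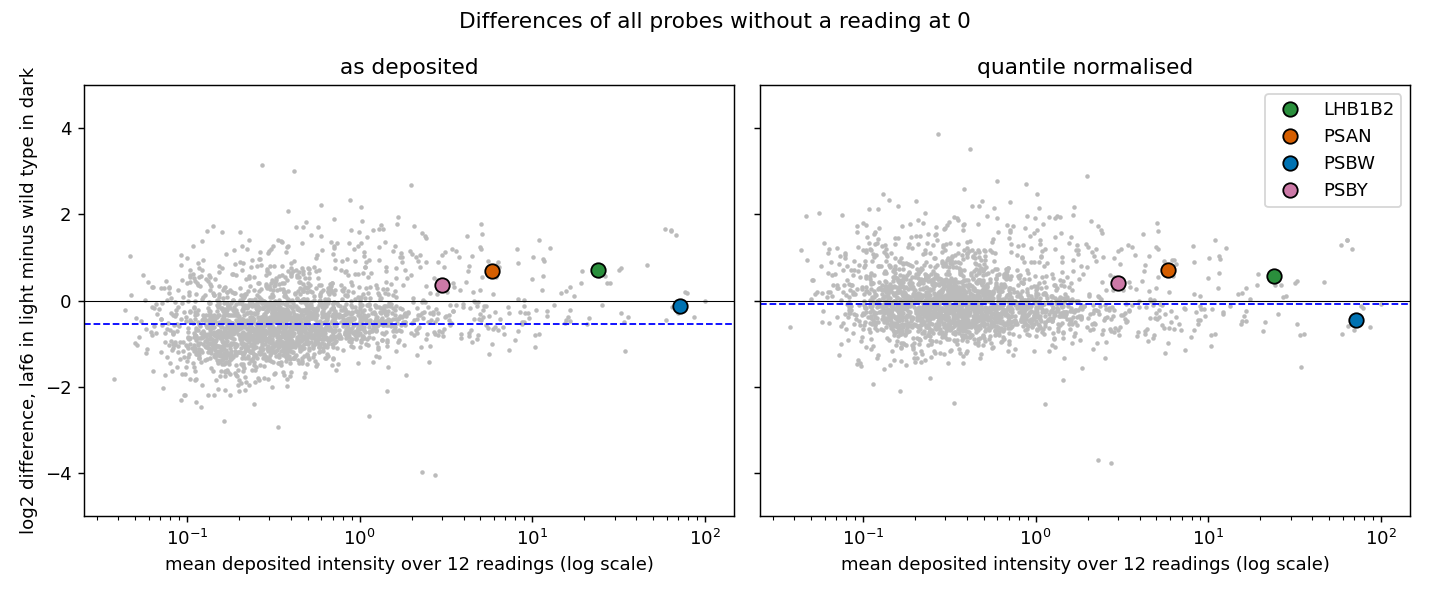
Log2 difference between the groups (vertical axis, positive where illuminated laf6 was higher), against the mean deposited intensity over the 12 readings (horizontal axis, log scale) for the 2289 probes without a reading at 0, as deposited on the left and after quantile normalisation on the right. Grey points are probes, coloured points the 4 genes, and the dashed line is the median of all 3439 probes, at -0.54 and -0.08. LHB1B2, PSAN and PSBY lie above 0 and PSBW below it in both panels.

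The calls depended on how the readings were counted and, for PSAN and LHB1B2, also on other settings. With the 12 readings taken as separate samples, limma called all 4 genes, with adjusted p-values of 0.0101 for LHB1B2, 0.00311 for PSAN, 0.0306 for PSBW and 0.0228 for PSBY. That setting called 22.5% of all probes. With consecutive readings as a random block, whose estimated correlation was 0.22, the adjusted p-values were 0.0159, 0.00561, 0.0413 and 0.0396, and 18.9% of all probes were called. PSAN and LHB1B2 were also called by eBayes with trend and robust settings, at 0.0182 and 0.0389, where 14.7% of all probes were called. On the same 3 replicates PSAN was also called with medians centred (adjusted p = 0.0417 in limma), with the 75th percentile (0.0431) and with a pseudocount (0.0487). Over all 3439 probes these settings called 209 higher and 45 lower, 167 and 79, and 260 and 209. The planned fit called 189 and 146. Trend and robust settings leave each difference as it was in the planned fit. The plot of settings shows that each difference changed little with 12 readings and with the pseudocount. With medians centred it moved from 0.57 to 1.32 for LHB1B2, from 0.71 to 1.3 for PSAN and from 0.41 to 0.96 for PSBY. For PSBW it changed sign, from -0.46 to 0.48. Scaling by the 75th percentile also raised all 4 differences, by less than median centring did.

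**Figure D4:**
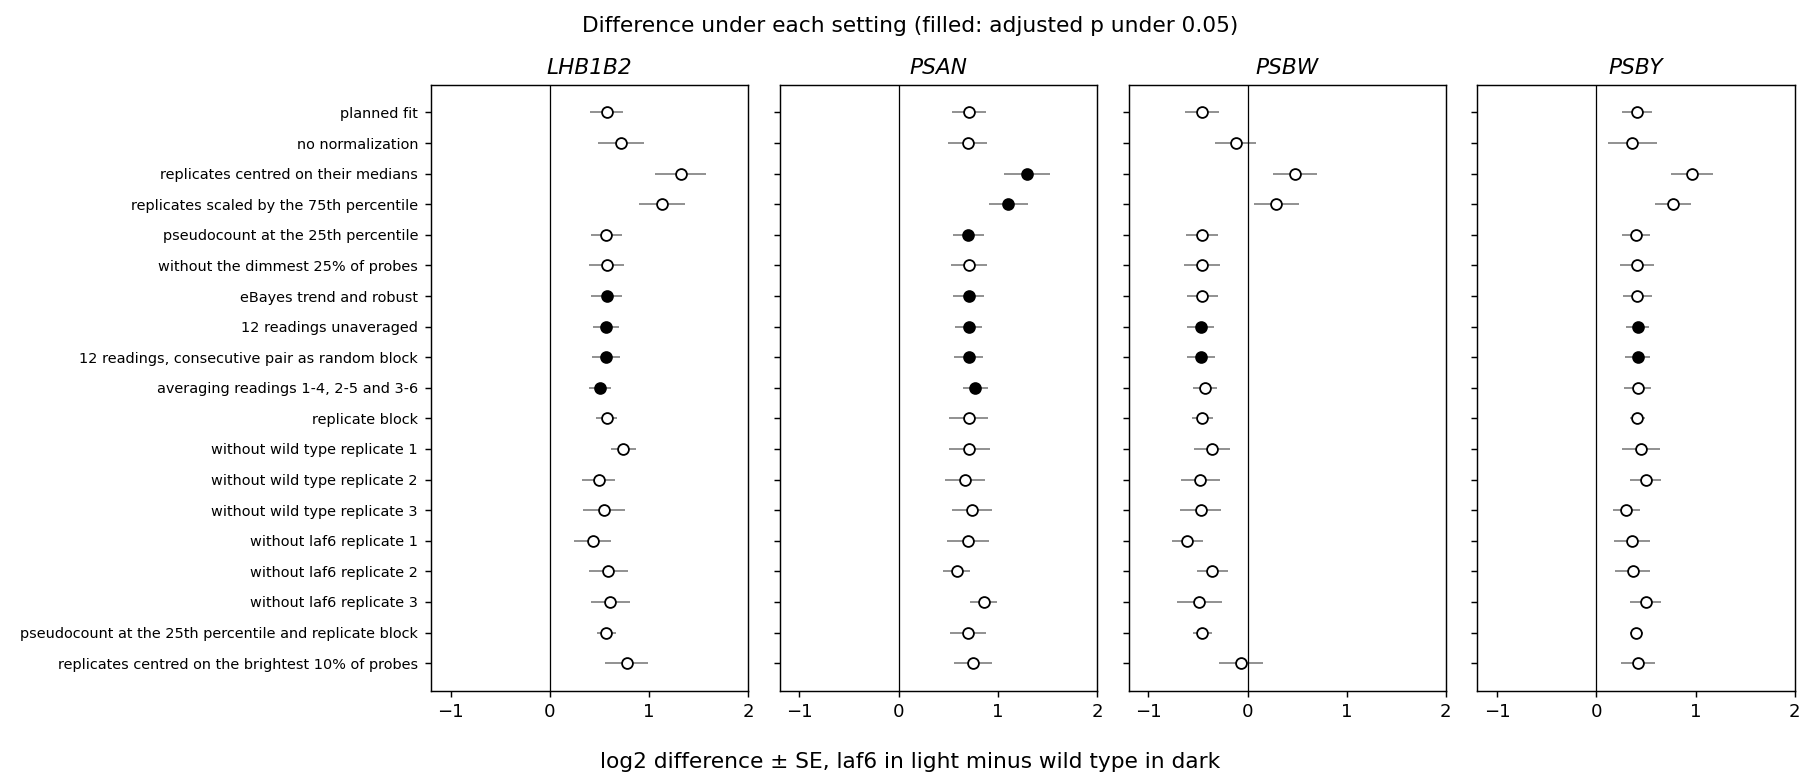
Log2 difference ± SE (horizontal axes, positive where illuminated laf6 was higher) of each gene under the planned fit and 18 alternative settings (vertical axis). Filled points have an adjusted p under 0.05 in limma. All 4 genes are filled in the 2 fits on 12 readings with no averaging. The PSBW point is above 0 with replicates centred on their medians or scaled by the 75th percentile. Its SE bar also spans 0 without normalisation and with replicates centred on the brightest 10% of probes.

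The ratio of 2 genes within a sample does not depend on a factor that scales the whole sample. It was compared between the groups for the 6 pairs of genes, on deposited log2 values. The LHB1B2 to PSBW ratio was higher in laf6 by 0.84, or 1.79-fold, and the PSAN to PSBW ratio by 0.82, or 1.76-fold. Because of the ceiling both are lower bounds. In neither did the 3 replicates of the groups overlap. Each had a two-sided exact permutation p of 0.1, the smallest that 3 against 3 can reach, and 0.3 after adjustment over the 6 pairs. With the 12 readings as separate samples the adjusted exact permutation p-values were 0.0130 and 0.0195. These treat the readings as independent, which the labels do not give.

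Between LHB1B2 and PSAN, the ratio differed by 0.02 (exact permutation p = 1), and its sign changed with normalisation. The ratios of LHB1B2 and of PSAN to PSBY were higher in laf6 by 0.36 and 0.33, with groups that overlapped (exact permutation p = 0.2 each, 0.3 adjusted). The PSBW to PSBY ratio differed by -0.48 on the log2 scale, as an upper bound for the same reason, with an exact permutation p of 0.3, or 0.36 adjusted.

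The way the genes varied among readings of one group was also uneven. Deviations of the normalised log2 values from the group means, over 12 readings, had a Pearson correlation of 0.62 between LHB1B2 and PSBW and of -0.47 between PSAN and PSBW. It was 0.30 between PSAN and PSBY, 0.19 between LHB1B2 and PSBY, 0.01 between LHB1B2 and PSAN and -0.19 between PSBW and PSBY. As deposited, where the scale of a whole reading is still included, LHB1B2 with PSBW had 0.72 and LHB1B2 with PSAN 0.49. Whether the readings are independent is not given by the labels, so these values only describe the 12 readings.

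Few other genes of the thylakoid membrane were on the array. Of 98 loci on 7 lists (photosystem I, photosystem II, antenna, electron carriers, ATP synthase, the NDH complex, and assembly, repair and state transition), 8 had a probe of 1 gene. These were the 4 genes above and 4 more, of which the planned test called none in either direction. Of the 4 others, 3 had no reading at 0, and their median was -0.19 on the normalised log2 scale and -0.30 on the deposited one. After normalisation 1 of these 3 was positive.

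PSB27, an assembly factor of photosystem II, averaged 2.47 ± 1.75 in wild type against 2.14 ± 1.31 in the mutant (SD, n = 3 each) and a normalised log2 difference of 0.10 ± 1.16 (SE), so its spread was far wider than that of the 4 genes. NDHS, a subunit of the NDH complex of cyclic electron flow, had 10.5 ± 1.11 and 8.53 ± 0.768, with a log2 difference of -0.19 ± 0.12. PYG7, needed for photosystem I assembly, had 0.857 ± 0.178 and 0.578 ± 0.0631, with -0.22 ± 0.12. Their adjusted p-values in limma were 0.994, 0.400 and 0.321. NDHN, another NDH subunit, was listed at 0 in 3 wild type and 5 laf6 readings and was given no fold. As deposited the differences of PSB27, NDHS and PYG7 were -0.03, -0.30 and -0.55, so that of PSB27 changed sign with the scaling.

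For each gene, the probes of 1 gene with the most similar normalised log2 values over the 12 readings were taken from 262 candidates without zeros. LHB1B2 was most like AT3G15140 (Pearson r = 0.94), AT3G47650 (0.92) and PRK (0.91), the phosphoribulokinase of the Calvin cycle. Within groups, where the difference between groups is removed, these had r = 0.83, 0.74 and 0.78. PSAN was most like AT5G53920 (0.91), AT3G26630 (0.90) and AT2G38070 (0.89), with 0.63, 0.65 and 0.57 within groups.

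PSBY was most like AT1G74070 (0.94), AT1G74470 (0.88), the geranylgeranyl reductase that makes the phytol tail of chlorophyll, and AT5G50350 (0.87). Within groups these had 0.85, 0.73 and 0.72. PSBW was most like AT4G32060 (0.96), CUTA (0.93) and AT1G22040 (0.92), with 0.91, 0.85 and 0.83 within groups. All 3 of these had negative normalised differences, as PSBW had (-0.57, -0.46 and -0.78). The genes nearest to LHB1B2, PSAN and PSBY all had positive ones, from 0.23 to 1.93. A measure of likeness over both groups favours genes with the same direction. It also holds the variation within groups, so high values within groups follow in part from the choice of genes. These correlations are descriptions only.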

How the data were processed

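RNA was measured on an expression array in 6 samples of dark-adapted wild type and 6 of laf6 after 1 h of light. The deposited table holds linear spot intensity values. Background correction, array scaling and the origin of the ceiling, all steps by the authors, are recorded neither in the labels nor in the table. Probes were named through the platform annotation, which can be old, and the TAIR10.1 gene table. Its coordinates are not printed because the array's build is not given.

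Consecutive readings (1 and 2, 3 and 4, 5 and 6) were averaged as intensities, giving 3 replicates per group. Over 1387 probes with a mean above 0.3, the deviations from group means of normalised log2 values correlated at 0.68 and 0.54 for readings 3 and 4 and readings 5 and 6 in wild type, and at 0.28 and 0.68 in laf6. For readings 1 and 2 they correlated at 0.12 and 0.02, within the -0.63 to 0.17 of other pairs. Same-numbered replicates of the 2 groups correlated at 0.55, 0.45 and 0.17 over these probes, and at 0.18, 0.10 and 0.17 over all 3439 probes. From these values alone, the numbers were used to pair samples in the ratios by number and in the replicate block. The planned test did not use the pairing.

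Zeros were set to the lowest positive value, 1.33e-05, and log2 values were quantile normalised and compared by lmFit and eBayes of limma 3.58.1, run in R 4.3.3. Benjamini-Hochberg adjustment ran over all 3439 probes. The fit was also run on simulated data, with independent replicates and added changes larger than the differences of the 4 genes. That run does not show how often differences of their size would be called. Named genes were the 4 members, up to 3 genes per list without a zero and any called gene, and the 3 most similar probes per gene. Likeness was taken among probes with a mean above 0.3. A search of gene names for photosynthetic terms found 3 of the 4 genes and no other. The members and lists were chosen with earlier results of these data known. No sequence is printed.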

Additional observations from a re-analysis of the deposited data

Results flagged for a closer look

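PSAN in wild type had 1 deposited reading, number 6 at 3.43, that lay apart from the other 5, which were between 4.38 and 4.84. The gap to the nearest reading was 0.677 of the range of the group, above Dixon's 95% limit for 6 samples. After normalisation no reading of the 4 genes passed that limit. Chance alone passes it in about 1 of 20 groups, and 16 groups were looked at. Without wild type replicate 3, which holds that reading, the log2 difference of PSAN was 0.74 against 0.71 with it.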

How the results depend on the processing

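The signs of LHB1B2, PSAN and PSBY were positive in all 18 alternatives run for each, and PSBW was negative in 17 of 19. The replicate block and the trend and robust settings leave the difference itself unchanged, so they could not change its sign. PSBW changed to 0.48 with replicates centred on their medians and to 0.29 with the 75th percentile, neither called. It was -0.06 ± 0.22 (SE) with replicates centred on the brightest 10% of probes and -0.12 ± 0.21 without normalisation. With the 12 readings unaveraged, and with consecutive pairs as a random block, all 4 genes were called by limma, at log2 differences of 0.56 (LHB1B2), 0.71 (PSAN), -0.47 (PSBW) and 0.42 (PSBY) in both. LHB1B2 was also called with trend and robust settings (0.57) and with readings averaged as 1-4, 2-5 and 3-6 (0.51). PSAN was called in both of these (0.71 and 0.77), with medians centred (1.3), with the 75th percentile (1.11) and with the pseudocount of 0.0545 (0.70). Of the 8 listed thylakoid genes, 0 were called in the planned test, where the 4 members had unadjusted p-values under 0.05. In both fits on 12 readings 3 were called higher and 1 lower. There were 2 higher with trend and robust settings and with the other averaging. With medians centred, the 75th percentile or the pseudocount, 1 was higher. Each of these calls was of a member, and none of the other listed genes was called in these settings. The calls over all probes in each setting are given below. The median of the 8 listed genes, -0.04, became 0.53 with medians centred and 0.34 with the 75th percentile. It was 0.04 with the pseudocount and 0.10 without the dimmest 25% of probes, NDHN among them. When a replicate was left out it ran from -0.23 to 0.39, so its sign depended on the setting. The 8 genes include the 4 members, and NDHN with its zeros set to the lowest positive value.

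With the replicate block the adjusted p-values in limma were 0.121 (LHB1B2), 0.181 (PSAN), 0.144 (PSBW) and 0.125 (PSBY), so no call of the 4 genes changed. The SE was lower than in the planned test for LHB1B2 (0.10 against 0.17), PSBW (0.10 against 0.17) and PSBY (0.08 against 0.15). For PSAN it was higher (0.20 against 0.17). The block left 3 probes called higher and 9 lower, and with the pseudocount added to it 174 and 121. The planned test had 189 and 146. Without normalisation there were 114 and 362, and with 12 readings 353 and 421, or 305 and 344 with the random block. The other averaging gave 340 and 347. There were 209 higher and 45 lower with medians centred, 167 and 79 with the 75th percentile, and 260 and 209 with the pseudocount alone. Trend and robust settings gave 272 and 232, and replicates centred on the brightest 10% of probes gave 126 and 348. That centring and the pseudocount with the block were chosen after seeing the data. Leaving out a replicate gave 59 to 114 higher and 32 to 83 lower, from fewer samples. The 4 genes then had differences of 0.44 to 0.74 (LHB1B2), 0.58 to 0.86 (PSAN), -0.61 to -0.36 (PSBW) and 0.30 to 0.50 (PSBY), with none called. 

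With 12 readings, all ratios between genes except LHB1B2 to PSAN had an adjusted exact permutation p under 0.05. That test treats the readings as independent, which the labels do not give. On the 3 replicates the lowest adjusted exact permutation p was 0.3. They differed by 0.84 (LHB1B2 to PSBW), 0.36 (LHB1B2 to PSBY), 0.82 (PSAN to PSBW), 0.34 (PSAN to PSBY) and -0.48 (PSBW to PSBY). The LHB1B2 to PSAN ratio was -0.14 after quantile normalisation and ran from -0.060 to 0.18 when a replicate was left out. Where no cause is stated, it was not tested. Values at the ceiling are bounds.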
